A study of Mus musculus with 6 samples.

Results

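Bone morphogenetic protein (BMP) signalling was examined through 10 genes in mouse embryonic stem cells that lack both glycogen synthase kinase-3 genes and in wild-type cells. The genes are the ligand Bmp4, the type I receptor Bmpr1a, the signal-carrying Smads Smad1 and Smad5, the inhibitory Smad6, the inhibitor-of-DNA-binding genes Id1, Id2, Id3 and Id4, and the homeobox gene Msx2. Every probe set that the platform annotation assigns to exactly 1 of these genes was taken, which gave 24 of the 45101 probe sets on the array. Of these, 18 reached a log2 intensity of 4 on at least 3 of the 6 arrays and were tested, and they cover 9 of the 10 genes. Smad6 is the gene left without a tested probe set.

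The cells compared were Gsk-3a-/-; Gsk-3b-/- embryonic stem cells (DKO, 3 arrays) and wild-type embryonic stem cells of the line E14K (WT, 3 arrays). Both genotypes were grown without feeder cells on gelatin, in medium with 15% fetal bovine serum and 1000 units/ml of ESGRO, a preparation of leukaemia inhibitory factor. Total RNA, with an input of 25 ng for every sample, was measured on Affymetrix expression arrays. The labels name the parent line for WT only, do not say how many DKO clones were used, and do not say whether replicates were separate cultures. The p-values therefore cover only the variation among these samples, possibly technical, and differences between the lines other than the loss of Gsk-3 cannot be told apart from that loss.

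BMP ligands bind paired type I and type II receptor kinases, which phosphorylate Smad1, Smad5 and Smad9. These join Smad4, enter the nucleus and switch on targets that include the Id genes, Msx2 and the feedback inhibitors Smad6 and Smad7. Id proteins have a helix-loop-helix domain without a DNA-binding region and hold E proteins (Tcf3, Tcf4, Tcf12) away from DNA. In mouse embryonic stem cells, BMP from serum acts through Id proteins, beside leukaemia inhibitory factor, to keep the cells from differentiating. Gsk-3 is known to phosphorylate the linker of activated Smad1, which marks that protein for degradation, a step that transcript arrays do not read.

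The promoters of the Id genes and of Smad6 are shown because these genes are the classic direct Smad targets. The windows run from 250 bases before to 30 bases after the RefSeq start (build GRCm38.p6), and 9 of the 10 genes matched the table of promoters; Id1 did not. The searched motifs, on both strands, were GGCGCC, a GC-rich element bound by BMP Smads, GTCTAGAC, the palindromic Smad-binding element, and CTTTGAT, a Tcf/Lef element; GGCGCC and GTCTAGAC are their own reverse complements, and none of the 3 overlaps another in these windows. Each sequence is given 5′ to 3′ in the direction of its gene, with matches in capitals.
Id2 promoter, chr12:25096063-25096342, minus strand: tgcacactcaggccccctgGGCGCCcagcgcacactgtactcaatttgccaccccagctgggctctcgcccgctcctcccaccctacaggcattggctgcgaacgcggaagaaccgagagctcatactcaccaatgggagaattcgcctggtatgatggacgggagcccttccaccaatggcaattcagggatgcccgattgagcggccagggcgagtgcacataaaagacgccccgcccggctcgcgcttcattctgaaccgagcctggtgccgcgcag
Id4 promoter, chr13:48260866-48261145, plus strand: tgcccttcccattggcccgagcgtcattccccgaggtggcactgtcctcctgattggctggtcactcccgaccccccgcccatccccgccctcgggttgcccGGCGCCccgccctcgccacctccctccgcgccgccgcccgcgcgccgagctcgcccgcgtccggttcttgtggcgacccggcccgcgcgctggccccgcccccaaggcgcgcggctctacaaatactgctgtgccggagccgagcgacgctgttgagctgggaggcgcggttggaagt
Id3 promoter, chr4:136143572-136143851, plus strand: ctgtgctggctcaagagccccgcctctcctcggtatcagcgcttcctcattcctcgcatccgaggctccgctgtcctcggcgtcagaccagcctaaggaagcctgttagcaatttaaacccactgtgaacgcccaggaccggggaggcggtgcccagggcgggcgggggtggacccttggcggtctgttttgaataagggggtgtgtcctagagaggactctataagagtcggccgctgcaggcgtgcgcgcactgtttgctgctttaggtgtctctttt
Smad6 promoter, chr9:64022030-64022309, minus strand: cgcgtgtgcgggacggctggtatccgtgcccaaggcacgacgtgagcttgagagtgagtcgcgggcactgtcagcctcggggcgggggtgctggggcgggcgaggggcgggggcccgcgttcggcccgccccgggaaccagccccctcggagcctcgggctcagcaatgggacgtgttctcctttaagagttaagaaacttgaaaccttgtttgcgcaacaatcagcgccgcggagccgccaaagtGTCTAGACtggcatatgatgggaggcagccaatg
Id2 and Id4 each held 1 GGCGCC, with its first base at position -231 in Id2 and -148 in Id4, counted from the start. Id3 held none of the motifs. Smad6 held 1 GTCTAGAC, with its first base at position -4. Over the 9 matched genes, 4 held GGCGCC in at least 1 window (Id2, Id4, Bmpr1a and Smad5), 1 held GTCTAGAC and 0 held CTTTGAT. Among all 32851 promoter windows of this length, 10.9% held GGCGCC, 0.192% held GTCTAGAC and 3.56% held CTTTGAT. The 9 genes have 11 windows, 3 of them of Smad5 and partly overlapping. Counts of genes and shares of windows are therefore unlike measures. The windows of the 9 genes had a GC content of 60.0 to 78.6%, beside a median of 52.5% over all windows. A match describes letters in the window and does not show that a factor binds there.

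Median intensity was 10 or 11 on every array, and precision is limited by the small number of arrays. The targeted genes did not settle the labels: the Gsk3a probe set was lower on all 3 DKO arrays (difference -1.38, adjusted p = 0.0942 by limma; 0.00646 with a replicate block), 0 of 5 Gsk3b probe sets passed, and whether any of them lies in a deleted part is not known here. Spike-in control probe sets were bright on replicate 3 of both genotypes (mean log2 intensity 9.50 in DKO and 9.91 in WT) but only 1.73 to 1.85 elsewhere. The labels name no batch. A block that sets replicate 3, with 1 array of each genotype, apart from replicates 1 and 2 was drawn from these spike-in values and is called the spike-in block. The ratio of 3'-end to 5'-end signal in 3 control transcripts averaged 2.20 ± 0.32 log2 units in DKO and 1.98 ± 0.33 in WT (SD, n = 3). It was lowest on replicate 3 in both genotypes (1.83 in DKO and 1.64 in WT) and 2.00 to 2.44 on the other arrays. All 10 embryonic stem cell markers were tested, and by limma 0 of them passed (0 at an unadjusted p under 0.05; 0 with either block). Their summed intensity was 29226 to 32189 in DKO and 30886 to 32641 in WT. Of 9 fibroblast markers measured, 4 (Col3a1, Col6a3, Lum and Postn) lay under the filter on all arrays. The fibroblast list summed to 203 to 293 in DKO and 227 to 455 in WT. By limma 0 of its 3 tested genes passed (1 unadjusted). With the replicate block 1 fell (Col1a1, a log2 difference of -1.34, limma adjusted p = 0.00506), and with the spike-in block 0 passed.

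Id1 was lower in DKO cells, at 0.439 of its WT level (limma, adjusted p = 0.0465). In the fit without a block it was the only one of the 9 tested genes to pass. This call was close to the threshold, and Id1 passed in 7 of 15 alternatives to this fit. Id2 was also lower in DKO, while Bmp4, Id4 and Msx2 were higher, each without passing in this fit, which leaves out replicate number. With replicate number as a block, Id2, Bmp4 and Msx2 passed and Id4 did not. Bmpr1a, Smad1 and Smad5, read on their brightest probe sets, differed by at most 0.13 log2 units. By probe set, 1 of 18 passed an adjusted p of 0.05, where 3.24% of all 20841 tested probe sets did (1.93% lower and 1.31% higher in DKO); by gene, 1 of 9 passed, against 4.13% of all 10496 tested genes. Because RNA came from whole cultures, a lower share of expressing cells and less RNA per cell cannot be told apart for any of these genes.

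With replicate number entered as a block, 4 of the 9 genes passed (Id1 and Id2 lower, Bmp4 and Msx2 higher), against 10.7% of all genes, and 4 of the 18 probe sets, against 9.57% of all. With the spike-in block Id1 passed alone, 1 of 9 genes against 6.55% of all genes, and 1 of 18 probe sets against 5.36% of all. The 3 DKO arrays did not overlap the 3 WT arrays in 7 of the 18 probe sets, against 16.7% of all tested probe sets, and in 5 of the 9 genes (Bmp4, Id1, Id2, Id4 and Msx2), against 18.9% of all genes. At an unadjusted p under 0.05 there were 8 of 18 probe sets, against 13.0% of all. These shares describe genes that were chosen with earlier results of these data known.

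**Figure D1:**
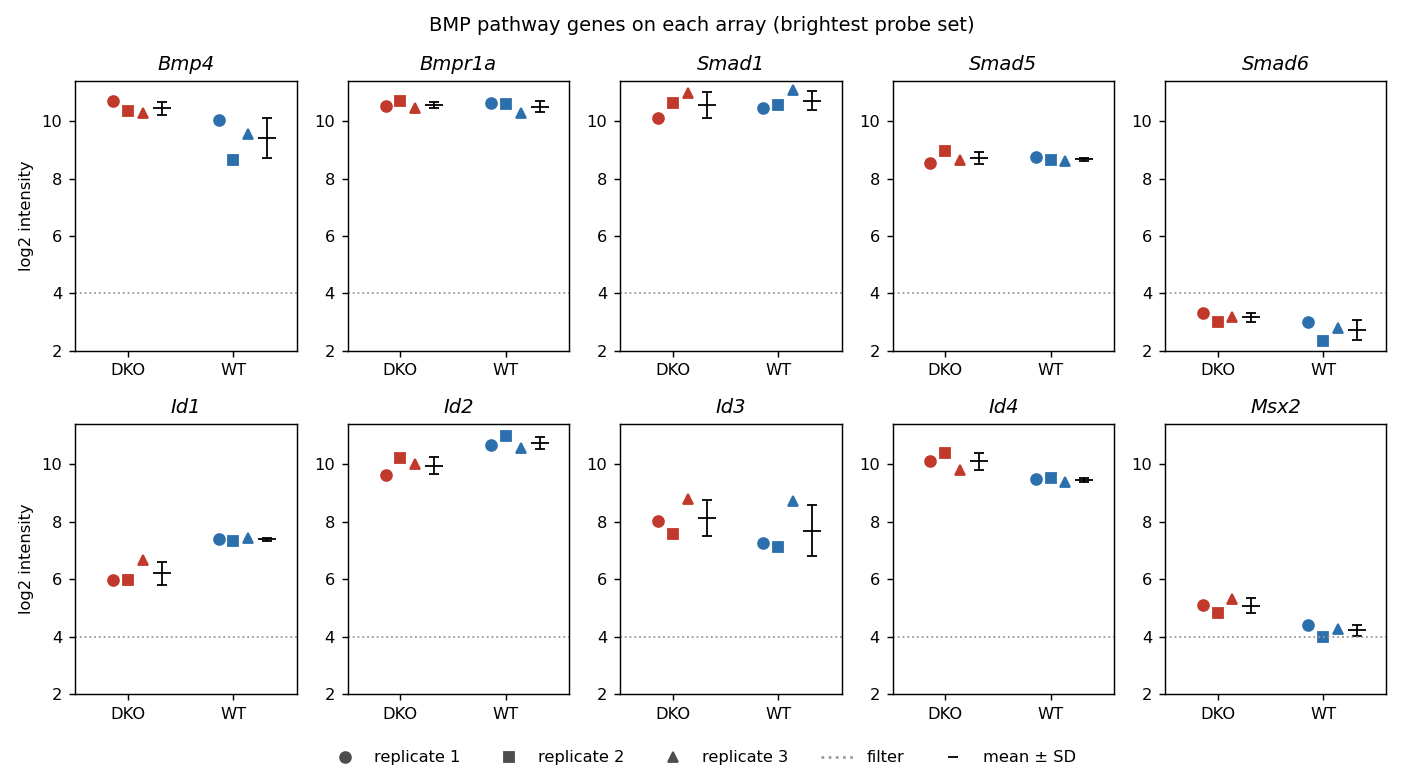
Log2 intensity (vertical axis) of each of the 10 genes on the 3 DKO arrays (red, left) and the 3 WT arrays (blue, right), read on the gene's brightest tested probe set, or for Smad6 on its single untested one. Symbols mark the replicate number, the bar is the mean ± SD (n = 3) and the dotted line is the filter at 4. Id1 and Id2 sit lower in DKO, Bmp4, Id4 and Msx2 sit higher, and Id3 is highest on replicate 3 in both genotypes.

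Bmp4 encodes the ligand. Its log2 intensities were 10.72, 10.36 and 10.29 on the DKO arrays and 10.03, 8.66 and 9.54 on the WT arrays. Every DKO array lay above every WT array, and WT replicate 2 was the lowest. The difference was 1.05 (SE 0.35, 95% interval 0.25 to 1.85), a 2.07-fold ratio, and did not pass (limma, adjusted p = 0.206; 0.0286 with the replicate block). It was 0.69, 1.70 and 0.75 in replicates 1, 2 and 3, and without WT replicate 2 it was 0.67 (adjusted p = 0.611).

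Of the markers of mesoderm, a tissue in which BMP ligands are active, 0 of 3 tested passed by limma (Evx1, Eomes and Mixl1; 3 at an unadjusted p under 0.05), and 2 passed with either block. The summed intensity of the list was 438 to 695 in DKO and 186 to 286 in WT, with no overlap, and 5 of the 10 (Gsc, Hand1, Mesp1, Msgn1 and Tbx6) lay under the filter on all arrays. Eomes (mean log2 intensity 7.87 in DKO and 6.63 in WT) and Evx1 (7.64 and 5.97) were the brightest, so the sum mostly reads these genes. Primitive endoderm markers summed to 5896, 4187 and 7298 in DKO replicates 1 to 3 and to 6118, 4913 and 2006 in WT, so WT replicate 3 was low. Afp and Ttr were under the filter on all arrays. By limma 0 of the 8 tested passed, and 2 had an unadjusted p under 0.05, Foxa2 higher (1.26) and Dab2 lower (-1.45) in DKO.

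Of 7 neural markers tested, 1 fell (Pax6, a log2 difference of -3.47, adjusted p = 0.000826) and 6 did not pass (4 of the 7 at an unadjusted p under 0.05); 5 fell with the replicate block (Map2, Nes, Pax6, Sox3 and Tubb3) and 3 with the spike-in block. That list summed to 244 to 582 in DKO and 477 to 852 in WT, and Dcx and Neurog1 were under the filter on all arrays. Of 5 trophoblast markers tested, 1 rose by limma (Cdx2, a difference of 4.09, adjusted p = 9.71e-05). At an unadjusted p under 0.05 there were 3, with Cdx2 and Eomes higher and Tfap2c lower in DKO (-0.89, adjusted p = 0.354). With either block 2 rose, Cdx2 and Eomes, which is also in the mesoderm list. The trophoblast list summed to 5122 to 7954 in DKO and 4371 to 7890 in WT, and Elf5 and Hand1 were under the filter on all arrays. The part of these cell types in the Bmp4 and Id values was not tested.

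Bmpr1a encodes a type I receptor for BMP ligands. Its brightest probe set read 10.53, 10.69 and 10.47 in DKO and 10.62, 10.61 and 10.29 in WT. The groups overlapped, and the difference was 0.05 (SE 0.23, 95% interval -0.47 to 0.57, adjusted p = 0.969). The other 3 tested probe sets of Bmpr1a differed by -0.03, 0.00 and 0.19, and its remaining 2 lay under the filter on every array. The unadjusted 95% intervals of these 3 lay within -0.71 to 0.78.

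Smad1 and Smad5 carry the signal into the nucleus. Smad1 read 10.10, 10.64 and 11.00 in DKO and 10.48, 10.56 and 11.09 in WT on its brightest probe set. Replicate 3 was the highest array in both genotypes, and the difference was -0.13 (95% interval -0.82 to 0.56, adjusted p = 0.933). The second tested probe set of Smad1 gave -0.23 (adjusted p = 0.857). The brightest probe set of Smad5 read 8.56, 8.97 and 8.64 in DKO and 8.74, 8.65 and 8.62 in WT, a difference of 0.05 (95% interval -0.47 to 0.57, adjusted p = 0.969).

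The probe sets of Smad5 were not alike. A dimmer one read 5.64, 5.83 and 5.81 in DKO and 6.32, 6.77 and 6.17 in WT, with no overlap between the groups. Its difference was -0.66 (SE 0.25, adjusted p = 0.274; 0.0926 with the replicate block), and that of the last was -0.19 (adjusted p = 0.882). Which transcripts each probe set reads was not examined.

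Smad6 competes with the signal-carrying Smads and is itself a BMP target. Its single probe set had intensities of 10, 8 and 9 in DKO and 8, 5 and 7 in WT, all under the filter at an intensity of 16. Both genotypes were therefore below the level at which a fold is given. It had an adjusted p of 0.518 when no filter was applied.

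Id1 was the only Id gene to pass in the fit without a block. It had intensities of 63, 63 and 101 in DKO and 169, 162 and 173 in WT, or 5.98, 5.98 and 6.66 against 7.40, 7.34 and 7.43 on the log2 scale. The WT arrays lay within 0.1 of each other, every DKO array was below them, and DKO replicate 3 was the nearest. The fall was -1.19 (SE 0.26, 95% interval -1.78 to -0.59; limma, adjusted p = 0.0465), close to the threshold. It was -1.39 over replicates 1 and 2 and -0.78 in replicate 3, and the adjusted p was 0.00853 under the replicate block and 0.017 under the spike-in block. Among the 6 fits on 5 arrays, only the one without DKO replicate 3 passed (adjusted p = 0.0259). The other 5 gave 0.164 without DKO replicate 1, 0.167 without DKO replicate 2, and 0.107, 0.16 and 0.11 without WT replicates 1, 2 and 3, with differences of -1.21 to -1.07.

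Id2 was read by 2 tested probe sets, and its remaining one lay under the filter. The brightest gave 9.64, 10.22 and 10.01 in DKO and 10.69, 10.99 and 10.58 in WT, with every DKO array below every WT array. The difference was -0.79 (SE 0.25, 95% interval -1.37 to -0.22, adjusted p = 0.179; 0.0435 with the replicate block). The other read 8.33, 6.57 and 6.93 in DKO and 8.31, 8.54 and 8.61 in WT. DKO replicate 1 stood at the WT level there, and the difference of -1.21 (SE 0.42, adjusted p = 0.226) became -1.74 without that array (adjusted p = 0.0282). Leaving out any other array instead gave this probe set an adjusted p of 0.26 to 0.53 by limma. When the tested probe sets of each gene were averaged, Id2 passed (adjusted p = 0.0441).

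Id3 read 8.03, 7.58 and 8.80 in DKO and 7.25, 7.11 and 8.71 in WT. Replicate 3 was the highest array in both genotypes, as it was for the spike-in controls, and the groups overlapped. Its difference of 0.45 (SE 0.47, 95% interval -0.61 to 1.51, adjusted p = 0.815; 0.386 with the spike-in block) was 0.63 over replicates 1 and 2 and 0.09 in replicate 3.

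The mean of Id4 was higher in DKO on all 3 of its tested probe sets, though the groups overlapped on the dimmest. The brightest read 10.13, 10.40 and 9.80 in DKO and 9.50, 9.51 and 9.38 in WT, with no overlap between the groups. The difference was 0.64 (SE 0.24, 95% interval 0.09 to 1.20, adjusted p = 0.281; 0.0942 with the replicate block). The second read 9.43, 8.77 and 7.95 in DKO and 7.80, 7.86 and 7.70 in WT, a difference of 0.93 (adjusted p = 0.287), and the third gave 0.26 (adjusted p = 0.828).

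Msx2, a homeobox gene that responds to BMP in many embryonic tissues, was dim. Its tested probe set had intensities of 34, 28 and 40 in DKO and 21, 16 and 19 in WT, and its other probe set lay under the filter on all arrays. Every DKO array was above every WT array. The log2 difference was 0.86 (SE 0.25, 95% interval 0.30 to 1.42, adjusted p = 0.128; 0.0297 with the replicate block), and it was 0.70, 0.81 and 1.07 in replicates 1, 2 and 3. With 16 added to each value before the logarithm it was 0.52 (adjusted p = 0.274).

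**Figure D2:**
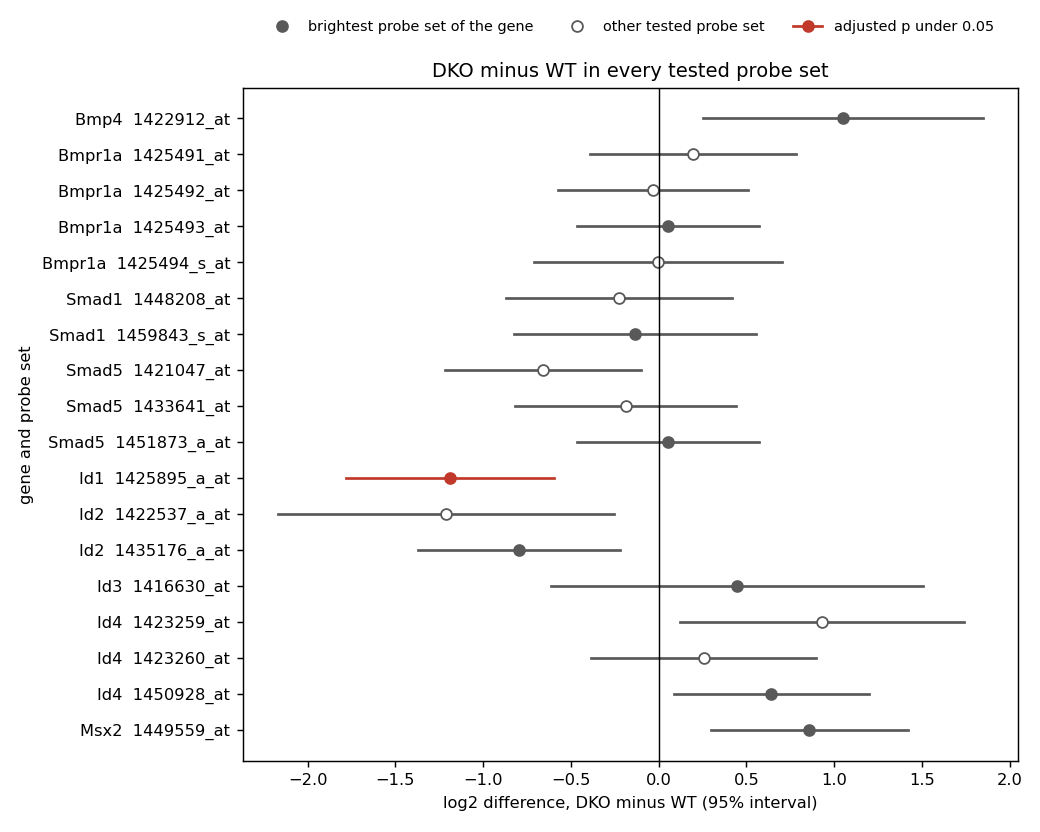
Log2 difference, DKO minus WT, with its 95% interval from the moderated standard error (horizontal axis), for the 18 tested probe sets (rows). Filled points are the brightest probe set of each gene, and red marks an adjusted p under 0.05, which Id1 alone reached at -1.19; both Id2 rows lie below 0 and all 3 Id4 rows above it.

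**Figure D3:**
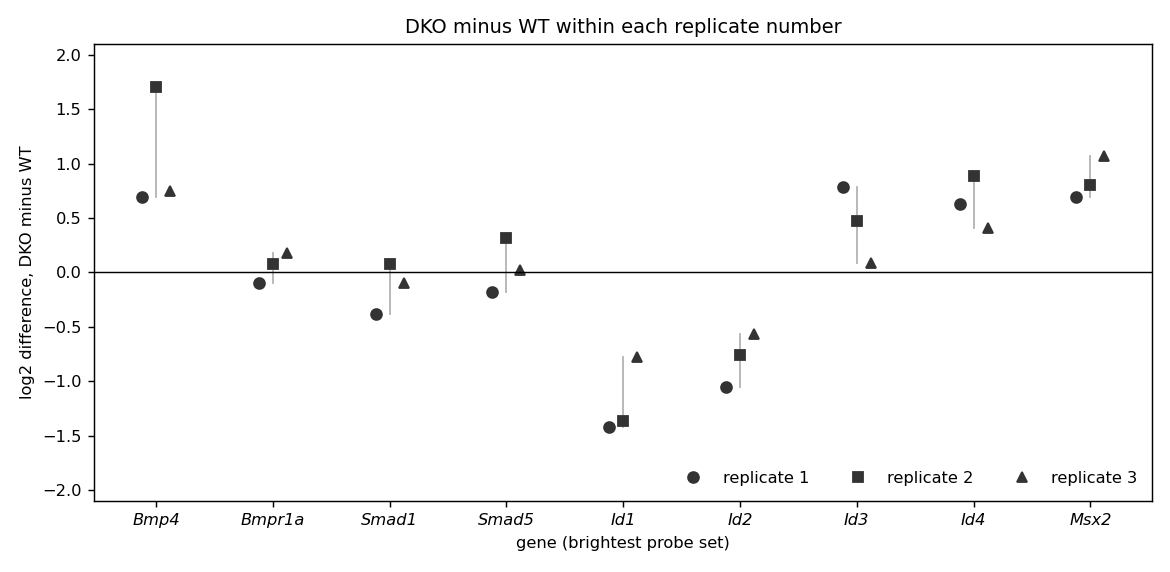
Log2 difference, DKO minus WT (vertical axis), within each replicate number for the brightest probe set of the 9 tested genes. Symbols mark replicates 1, 2 and 3; all 3 lie above 0 for Bmp4, Id3, Id4 and Msx2 and below 0 for Id1 and Id2, and they lie on both sides of 0 for Bmpr1a, Smad1 and Smad5.

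The wider pathway was described with 8 lists written by role, the 10 genes included. Of 75 genes written, 47 were tested: 1 was called higher (Bmp7), 1 fell (Id1) and 45 did not pass, beside 1.64% of all genes called higher and 2.50% lower. At an unadjusted p under 0.05 there were 9 of the 47, against 14.7% of all genes. Their median difference was 0.04, beside 0.00 over all genes. Bmp7, a second BMP ligand, read 5.09, 4.86 and 5.09 in DKO and 3.58, 2.58 and 3.32 in WT. The WT arrays all lay under the filter, so Bmp7 entered the test only through its DKO values, and its call (at least 2.02-fold higher, adjusted p = 0.0112) follows in part from that selection. With no filter it did not pass (adjusted p = 0.0918). The fit without DKO replicate 1 gave Bmp7 an adjusted p of 0.0801, and the other 5 fits that left out an array gave 0.011 to 0.044.

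In the list of ligands, of 5 tested, 4 did not pass and 1 was the Bmp7 call, with a median of 1.05 that includes Bmp7. Bmp2 and Bmp6, ligands named after their values were seen, differed by 0.99 (adjusted p = 0.534) and 1.07 (adjusted p = 0.261). Both were lowest on WT replicate 3, at 5.70 for Bmp2 and 4 for Bmp6. The primitive endoderm markers also had their lowest sum on that array, though Sox7 and Dab2 were lowest on DKO arrays. Over replicates 1 and 2 Bmp2 and Bmp6 differed by 0.48 and 0.40, and the part of primitive endoderm cells in these values was not tested.

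In 5 further lists, by limma, 0 genes passed in either direction. Among 7 receptors the one with the largest difference was Bmpr2, a type II receptor (-0.44, adjusted p = 0.557; 0 at an unadjusted p under 0.05; list median -0.22). Among 3 receptor-activated and common Smads it was Smad1 (median -0.05; 0 unadjusted). Among 12 inhibitors inside the cell it was Skil, a corepressor of Smads, which read 10.57, 10.77 and 10.49 in DKO and 11.35, 11.46 and 11.19 in WT without overlap (-0.73, adjusted p = 0.162; 0.051 with the replicate block; median 0.05; 1 unadjusted). Among 6 extracellular antagonists it was Grem1, which binds BMP ligands (0.59, adjusted p = 0.766; median 0.01; 0 unadjusted). Among the 3 E proteins that Id proteins bind it was Tcf3 (-0.24, adjusted p = 0.869; median -0.08; 0 unadjusted).

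The list of other BMP targets, which holds Msx2, had 9 tested genes, of which 0 passed by limma. At an unadjusted p under 0.05 there were 2, Msx2 higher and the dim gene Dlx3 lower in DKO (-0.81, adjusted p = 0.317). The groups did not overlap in either. With the replicate block 1 rose, Msx2. The median of the list was 0.27. The Id list, with 1 fallen and 3 not passing, had a median of -0.17; with the replicate block 2 fell. The block gave 3 higher, Bmp7 among them, and 2 lower over all 47 genes, against the 10.7% of all genes it called.

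**Figure D4:**
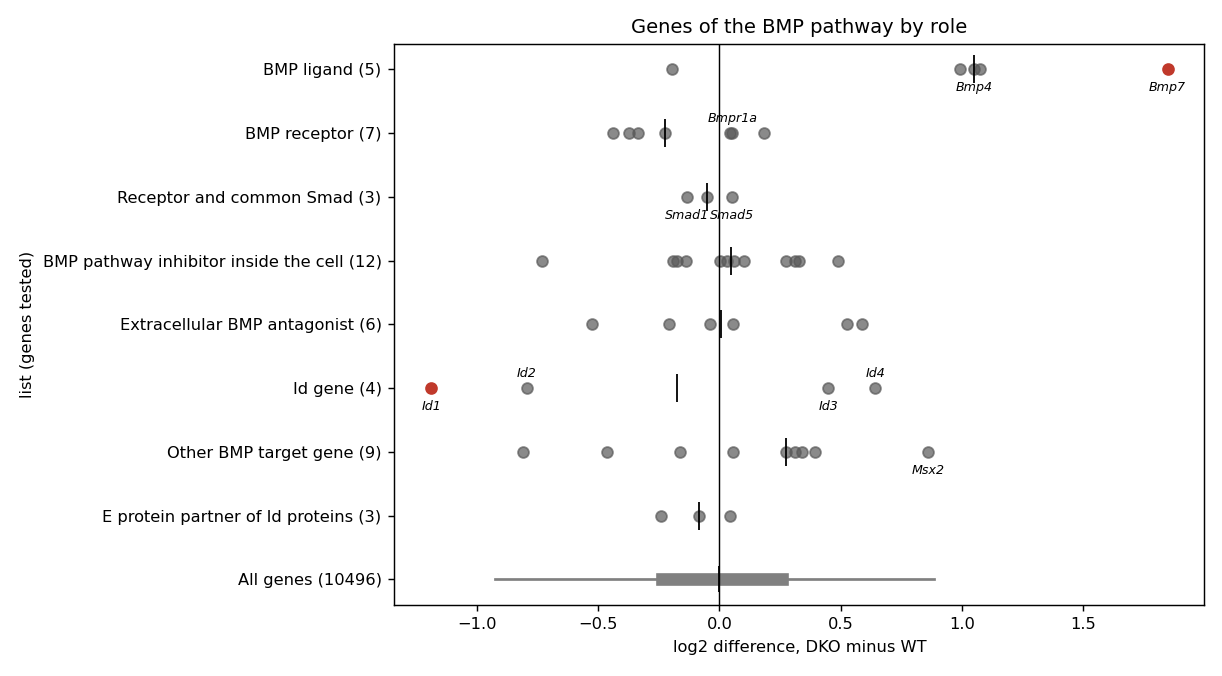
Log2 difference, DKO minus WT (horizontal axis), of each tested gene in 8 lists of BMP pathway genes by role (rows, number tested in brackets), each read on its brightest tested probe set. Vertical ticks are list medians, red marks an adjusted p under 0.05 (Bmp7 at 1.85 and Id1 at -1.19), and the bottom row gives the median, quartiles (thick) and 5th to 95th percentiles (thin) of all 10496 genes. Receptors lie between -0.44 and 0.19 with a median of -0.22, and receptor-activated and common Smads between -0.13 and 0.05. Ligands and Id genes spread furthest.

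Id1 alone of the 10 genes passed in the fit without a block. The genes whose profile over the 6 arrays was most like that of Id1 were Kndc1, Meis1 and Mycn. Their centred log2 values differed from those of Id1 by a root mean square of 0.12 in each case. They were chosen for this likeness, so a lower level in DKO is part of the choice and their values are a description without a test. Mycn, a Myc family transcription factor, read 10.23, 10.38 and 11.00 in DKO and 11.50, 11.41 and 11.56 in WT. Meis1, a homeobox gene, read 3.81, 3.91 and 4.25 in DKO and 5.25, 5.04 and 5.09 in WT. Kndc1 was under the filter on all 3 DKO arrays and read 4.70, 4.70 and 4.86 in WT.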

How the data were processed

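Total RNA was measured on 6 arrays, 3 DKO and 3 WT, assigned by sample title. The authors deposited 1 intensity per probe set and array, as whole numbers taken here as linear; the submitters' processing notes list limma 2.16.5, GCRMA 2.14.1, R 2.8.0 and GCOS, with no roles. Rounding makes low values coarse, and the table has no detection flags. Values were converted to log2 with no pseudocount. Gene names come from the platform annotation, updated by gene identifier to RefSeq (GRCm38.p6): 34958 had 1 gene, 932 several and 9211 none, and none was named from several.

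Non-control probe sets with a log2 value of at least 4 on at least 3 arrays (20841) were compared with limma 3.58.1 under R 4.3.3 (two-sided, lmFit then eBayes), with Benjamini-Hochberg adjustment over all of them. A gene is read on its brightest tested probe set. Where all arrays of a genotype are under the filter, the fold is a lower limit against it. The procedure was tested on simulated data.

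The genes and lists were chosen with earlier results of these data known. Named are the 10 genes, Gsk3a and Gsk3b, in each list those that passed or else the gene with the largest difference, and the 3 genes most like each of the 10 that passed. Bmp2, Bmp6, Dlx3 and the markers printed were named after their values were seen.

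At most 1.79% of tested probe sets had the same value on 2 arrays, so no array was a copy of another. Equal values cannot tell separate cultures from repeat arrays of the same RNA. After removal of genotype means, same-numbered arrays correlated at 0.427, 0.354 and 0.595, and differently numbered ones at -0.488 to 0.113. By the rule used this pairs the samples by title number, which the labels do not explain. The main fit left this pairing out, so its calls ignore it. Replicate number was a block only in an alternative, in which Id2, Bmp4 and Msx2 passed beside Id1. Other alternatives were a block drawn from the spike-in values, replicates 1 and 2 only, 2 other filters, a pseudocount of 16, quantile normalization, a mean-variance trend, the mean of all probe sets and leaving out each array.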

Additional observations from a re-analysis of the deposited data

How the results depend on the processing

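Each of the 9 tested genes was refitted under up to 15 alternatives. Id1, Id2, Bmp4, Id3, Id4 and Msx2 kept their direction in all those run, and Smad1, Bmpr1a and Smad5 did not. Smad1, Bmpr1a, Smad5, Id3 and Id4 never passed, Id2 passed in 2, and Bmp4 and Msx2 in 1 each. Id1 passed in 7 of 15 (adjusted p = 0.00853 to 0.167) and did not over replicates 1 and 2 only (0.0556), with no filter (0.131) or with the mean-variance trend (0.0661). With the replicate block, 1995 probe sets passed against 675 without it, and the 10 genes gave 4 probe sets and 4 genes (Id1, Id2, Bmp4, Msx2) and the pathway lists 5 genes; it changed no other call among the tested genes of the 10. The spike-in block gave 1117 probe sets, no filter 495 and the mean-variance trend 671. Replicates 1 and 2 alone gave 440. Over the latter, and with no filter, 0 probe sets and 0 genes of the 10 and 0 pathway genes passed by limma (7 and 6 of the 18 probe sets at an unadjusted p under 0.05). With the trend 0 of the 10 genes, 0 of their probe sets (8 unadjusted) and 1 pathway gene (Bmp7) passed. The stricter filter left 1 pathway gene (Id1), since Bmp7 was no longer tested. Averaged probe sets gave 2 genes (Id1, Id2) and 4 pathway genes, Skil among them. Leaving out 1 array gave 290 to 604 probe sets in all, the fewest without DKO replicate 1; 0 to 1 probe sets and 0 to 1 genes of the 10 (3 to 7 probe sets unadjusted); and 0 to 2 pathway genes. For the unadjusted counts under these alternatives, and for the averaged probe sets, no share over all features is given. Those counts are therefore not set against a background. The median difference of all probe sets lay between -0.03 and 0.01 in every setting. Signal limits Smad6 and the dim probe sets of Bmpr1a, Smad1, Id2 and Msx2, which gave no comparison.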
